A study of Homo sapiens with 4 samples.

Results

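Type I interferon response genes encode the signal relays, transcription factors and antiviral effectors that cells switch on when interferon is sensed. They are described here in HCT116 cells, a line established from a human colorectal carcinoma. The 32 genes were listed by symbol and matched to the Ensembl identifiers of the deposited values. All 32 were found among 29286 genes, and 25 of them reached 1 FPKM in at least 2 libraries. FPKM, the level used throughout, divides fragment numbers by the length of the transcript and the size of the library, so levels can be set side by side between genes. It was inferred from the values as the unit.

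Knockdown cells carried a lentiviral short hairpin against WDR43 (shWDR43), and control cells carried a hairpin used as control (titled shNC2, written shNC). Infection lasted 48 h in both groups and was followed by 3 days of puromycin, so lentivirus, hairpin and puromycin were shared by both groups, and an effect of infection itself cannot be seen in the comparison. WDR43 is a nucleolar factor of ribosome assembly. Each group had 2 libraries, which the labels do not tie to separate cultures, and the spread that p-values measure may be technical. The level of WDR43 itself was not analysed here, so the knockdown was not checked.

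In this pathway, type I interferons bind the receptor pair IFNAR1 and IFNAR2, and the kinases JAK1 and TYK2 then phosphorylate STAT2. With IRF9 it takes part in a complex that binds the interferon-stimulated response element in target promoters. Upstream, cytosolic sensors such as IFIH1 detect double-stranded RNA and act through IRF3 and IRF7 to induce interferon. Many of the target genes have a low level in unstimulated epithelial cells.

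The response element gives these genes a shared promoter feature that can be read directly. A 300-base window from 250 bases before to 50 after the RefSeq gene start was present in the RefSeq promoter table (GRCh38.p14) for 24 of the 32 genes, 32 windows in all because some genes have several starts. The searched form of the response element was GAAA, then any 2 bases, then GAAA, on either strand. Its matches may overlap one another. They occurred in 22 of the 32 windows (68.8%), against 3.57% of all 35116 windows in the table and 2.69% of the windows of tested genes. Windows of one gene can overlap and hold the same match, as in IFI27 and IFI44. By gene, 18 of 24 (75%) had the letters in at least one window. The letters TTCNNNGAA of the gamma-activated site, which read the same on both strands, occurred in 10 of the 32 windows (31.2%), against 7.66% of all windows. The 2 motifs can overlap, as they do in the first IFI27 window. A match of letters is a description and not a shown binding site.

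The windows are given for ISG15, the only gene of the list to pass the test, for OAS3 and IFI27, whose intervals left out 0 without passing, and for IFITM3, the gene with the highest level. Each reads 5′ to 3′ along the gene, and capitals mark response element letters on either strand.
ISG15 (chr1:1013247-1013546, plus strand): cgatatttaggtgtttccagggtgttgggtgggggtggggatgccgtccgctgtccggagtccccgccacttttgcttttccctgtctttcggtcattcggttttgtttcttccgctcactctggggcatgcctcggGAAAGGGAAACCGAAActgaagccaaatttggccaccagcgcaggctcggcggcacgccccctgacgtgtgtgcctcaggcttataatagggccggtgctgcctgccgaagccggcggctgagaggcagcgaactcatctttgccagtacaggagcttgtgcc
OAS3 (chr12:112938224-112938523, plus strand): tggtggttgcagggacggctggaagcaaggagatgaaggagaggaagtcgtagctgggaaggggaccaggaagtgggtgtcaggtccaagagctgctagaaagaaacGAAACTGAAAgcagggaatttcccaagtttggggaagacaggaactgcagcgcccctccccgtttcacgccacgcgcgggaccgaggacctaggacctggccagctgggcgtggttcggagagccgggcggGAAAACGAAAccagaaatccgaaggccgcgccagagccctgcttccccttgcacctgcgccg
IFI27 (chr14:94110486-94110785, plus strand): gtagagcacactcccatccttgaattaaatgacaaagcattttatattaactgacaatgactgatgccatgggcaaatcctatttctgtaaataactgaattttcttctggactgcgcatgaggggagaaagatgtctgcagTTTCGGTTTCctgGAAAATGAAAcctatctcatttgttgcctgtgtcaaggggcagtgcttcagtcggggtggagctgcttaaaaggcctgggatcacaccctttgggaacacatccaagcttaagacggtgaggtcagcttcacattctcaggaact
IFITM3 (chr11:320811-321110, minus strand): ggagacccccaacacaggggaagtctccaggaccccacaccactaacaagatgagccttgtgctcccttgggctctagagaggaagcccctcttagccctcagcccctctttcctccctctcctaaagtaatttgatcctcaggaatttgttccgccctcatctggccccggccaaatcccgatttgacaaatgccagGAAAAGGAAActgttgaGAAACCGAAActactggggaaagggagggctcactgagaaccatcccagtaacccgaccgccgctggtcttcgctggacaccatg

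Positions count bases from the start that the RefSeq table gives, with negative values before it. For ISG15 that start lies inside the longer GENCODE gene model. ISG15 held a pair of overlapping matches that began at -113 and -107. In OAS3 they began at -143 and -12. IFI27 held one match on each strand, beginning at -108 and -95, with a gamma-activated site between and overlapping them. In IFITM3 they began at -52 and -35. Matches stood in the promoter of a gene that rose and also in promoters of genes that did not pass. Of the 18 genes with the letters in at least one window, 14 were tested, 9 had a positive and 5 a negative log2 difference, with a median of 0.08. The 6 genes without the searched form were OAS1, ADAR, STAT2, IRF1, IRF9 and IFI35. A spacing of 1 base was not searched, and the OAS1 and IFI35 windows hold GAAACGAAA and GAAATGAAA. Of the 6 genes, 5 were tested, 4 with a positive and 1 with a negative log2 difference, and a median also of 0.08. The log2 difference was positive for 58% of all tested genes. Of these 6, OAS1, IRF1, IRF9 and IFI35 had the letters of the gamma-activated site, as TTCCCCGAA in IRF1 and TTCTGGGAA in IRF9.

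**Figure D1:**
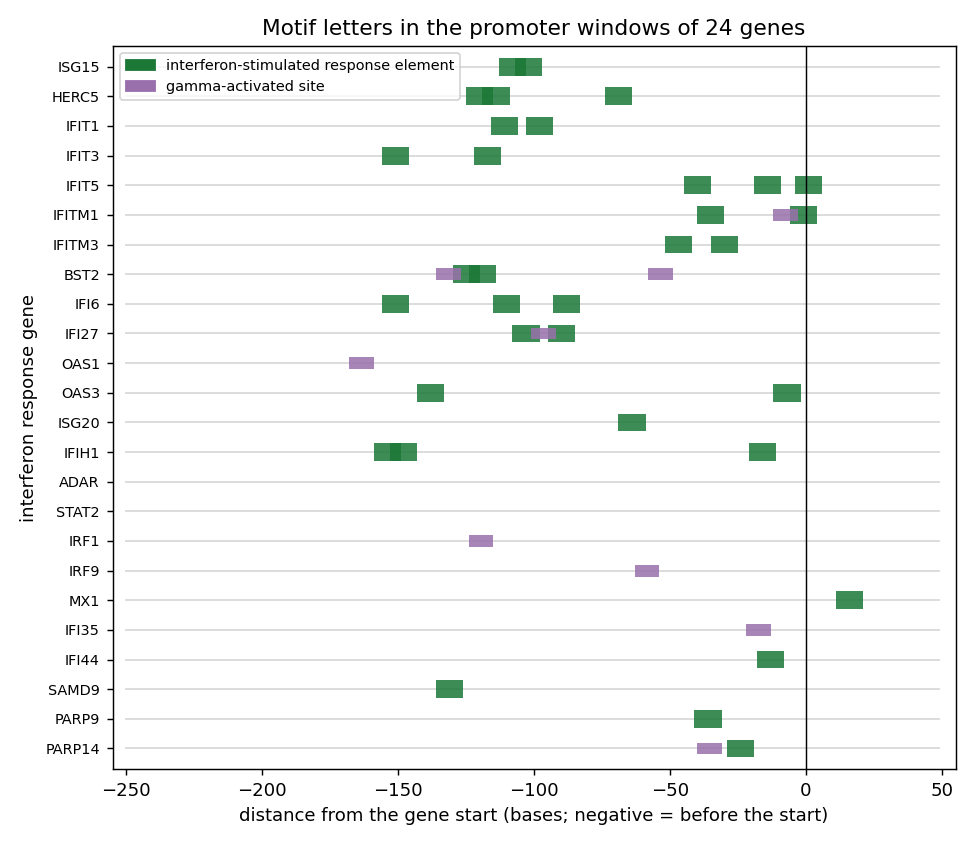
Positions of motif letters in the promoter windows of 24 interferon response genes, first window of each gene, as distance in bases from the RefSeq start. Green blocks mark response element letters on either strand and purple blocks TTCNNNGAA; ADAR and STAT2 show neither in this window.

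The cells were checked by markers. The epithelial genes EPCAM, KRT8 and KRT18 were abundant, EPCAM at 160 and 159 FPKM in shWDR43 and 155 and 181 FPKM in shNC. Of the defining intestinal markers, VIL1 and LGALS4 were at or near 0 in all 4 libraries and CDX2 lay between 1.59 and 1.74 FPKM. KRT8, a keratin gene, rose, at 807 and 798 FPKM in shWDR43 and 531 and 603 FPKM in shNC (log2 difference 0.50, adjusted p = 0.0480 by limma). KRT18 was at 514 and 485 FPKM in shWDR43 and 328 and 411 FPKM in shNC, without passing (adjusted p = 0.087 by limma). EPCAM, CDH1 and CDX2 had overlapping groups and log2 differences of -0.07, -0.11 and -0.03. The 7 epithelial markers summed to 1511 and 1474 FPKM in shWDR43 and to 1050 and 1227 FPKM in shNC, most of it KRT8 and KRT18. The part of that keratin difference in the interferon results was not tested. The leukocyte markers found in the values, 3 of 5 listed, summed to 0.135 and 0.367 FPKM in shWDR43 and to 0.176 and 0.467 FPKM in shNC. The 4 fibroblast markers summed to 7.15 and 5.70 FPKM in shWDR43 and to 7.80 and 7.01 FPKM in shNC, nearly all of it COL1A1. The 3 endothelial markers summed to 0.111 and 0.200 FPKM in shWDR43 and to 0.258 and 0.184 FPKM in shNC. In RNA from bulk cells, fewer cells with a transcript and less of it per cell cannot be told apart. The values summed to 393582 to 413758 FPKM per library, and read depth is unknown. The shNC libraries differed more from each other than the shWDR43 libraries, with an SD of the log2 difference across genes of 0.177 for shWDR43 and 0.245 for shNC.

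Levels of the list spanned from near 0 to over 100 FPKM. IFITM3, a membrane protein that blocks virus entry, was highest at 152 ± 14.3 FPKM in shWDR43 and 135 ± 12.9 FPKM in shNC (mean ± SD, n = 2 per group, as for all means below), and made up 37.2% to 40.4% of the summed FPKM of the 32 genes. ADAR, ISG15, IFITM2, IRF3 and STAT2 also averaged at least 10 FPKM in shNC. In shNC the ranges of the neighbours ADAR and ISG15 overlapped, as did those of ISG15 and IFITM2 and of IFITM2 and IRF3. The ranges of IFITM3 and ADAR did not overlap, nor did those of IRF3 and STAT2. At the other end, IFIT2, IFIT3, BST2, OAS1, OAS2, MX1 and IFI44 stayed below 1 FPKM in all 4 libraries and were not tested. Together the 32 genes held, of the FPKM total of each library, 0.0976% and 0.0943% in shWDR43 and 0.0862% and 0.0865% in shNC. The median level of the 32 genes was 2.79 and 2.88 FPKM in shWDR43 and 2.90 and 2.38 FPKM in shNC.

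**Figure D2:**
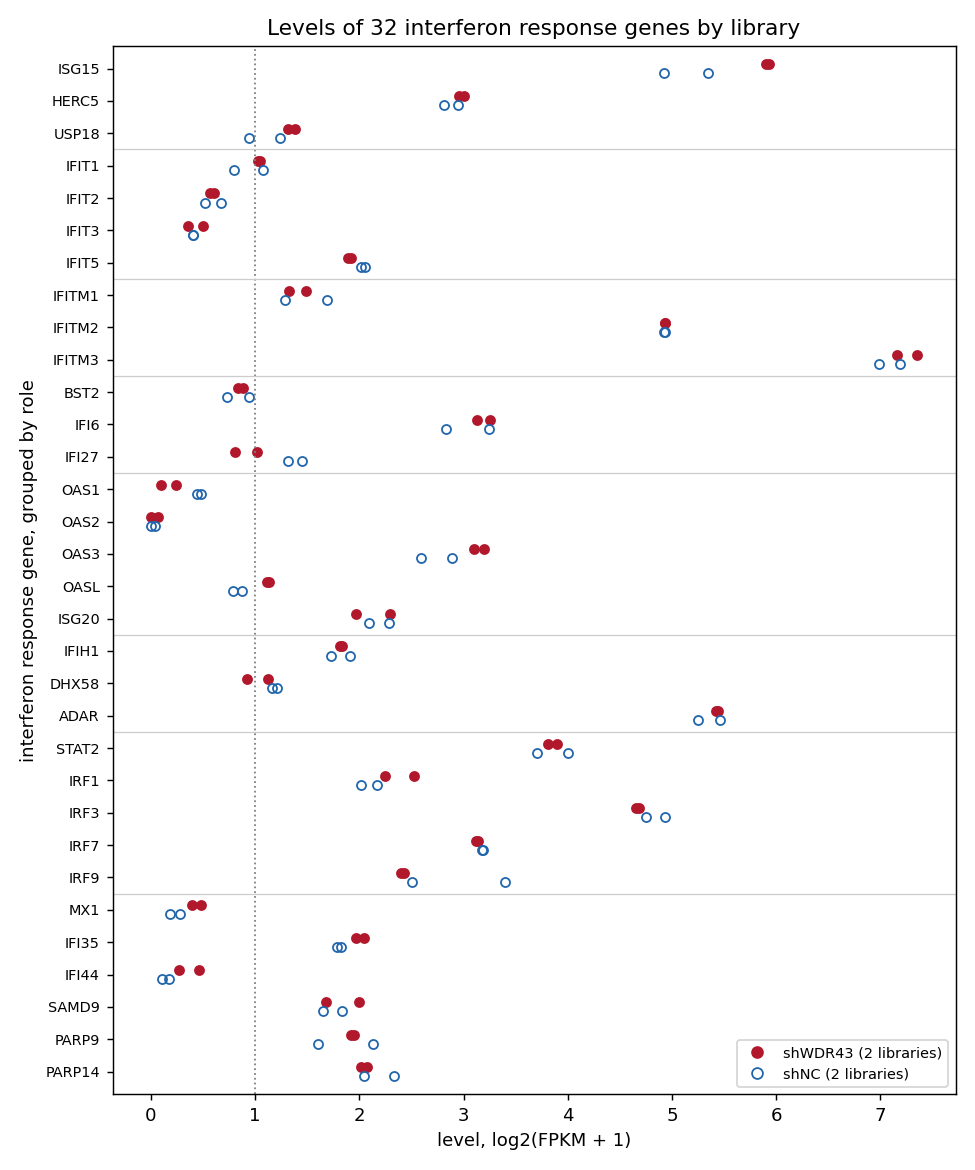
Level of each of the 32 genes in each library on the log2(FPKM + 1) scale, grouped by role, with filled points for shWDR43 and open points for shNC. The dotted line marks 1 FPKM; ISG15 shows both shWDR43 points to the right of both shNC points, and IRF9 shows 1 shNC library far from the other 3.

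Between shWDR43 and shNC, ISG15 was the one gene of the list that passed the test, and it rose. Of the 25 tested genes, 1 was called and 24 were not, with 1 that rose and 0 that fell (limma on log2(FPKM + 1), Benjamini-Hochberg adjusted p below 0.05 over 13303 tested genes). Over all tested genes 6.26% were called: 4.79% rose and 1.47% fell, so 1 of 25 (4%) lies near the background share. At an unadjusted p below 0.05 there were 3 of 25 (12%), against 26.4% of all tested genes. The median log2 difference was 0.06 for the list and 0.05 for all tested genes, and the median absolute difference was 0.14 and 0.16. Both shWDR43 libraries were above both shNC libraries for 7 genes (28%) and below for 6 (24%), against 35.8% and 21.5% of all tested genes, or 57.3% in either direction. The log2 difference was positive for 16 of 25 (64%), against 58% of all tested genes. The higher to lower split of all genes, 637 to 196, was 295 to 221 under median-ratio scaling and 327 to 287 under upper-quartile scaling. Log2 differences moved with the library left out. That of OAS3 was 0.55 without shNC replicate 1, and that of IRF9 was -0.98 without shNC replicate 2. With all 4 libraries they were 0.40 and -0.54. Without the filter on low values 0 of the 32 genes passed, and ISG15 had an adjusted p of 0.126.

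**Figure D3:**
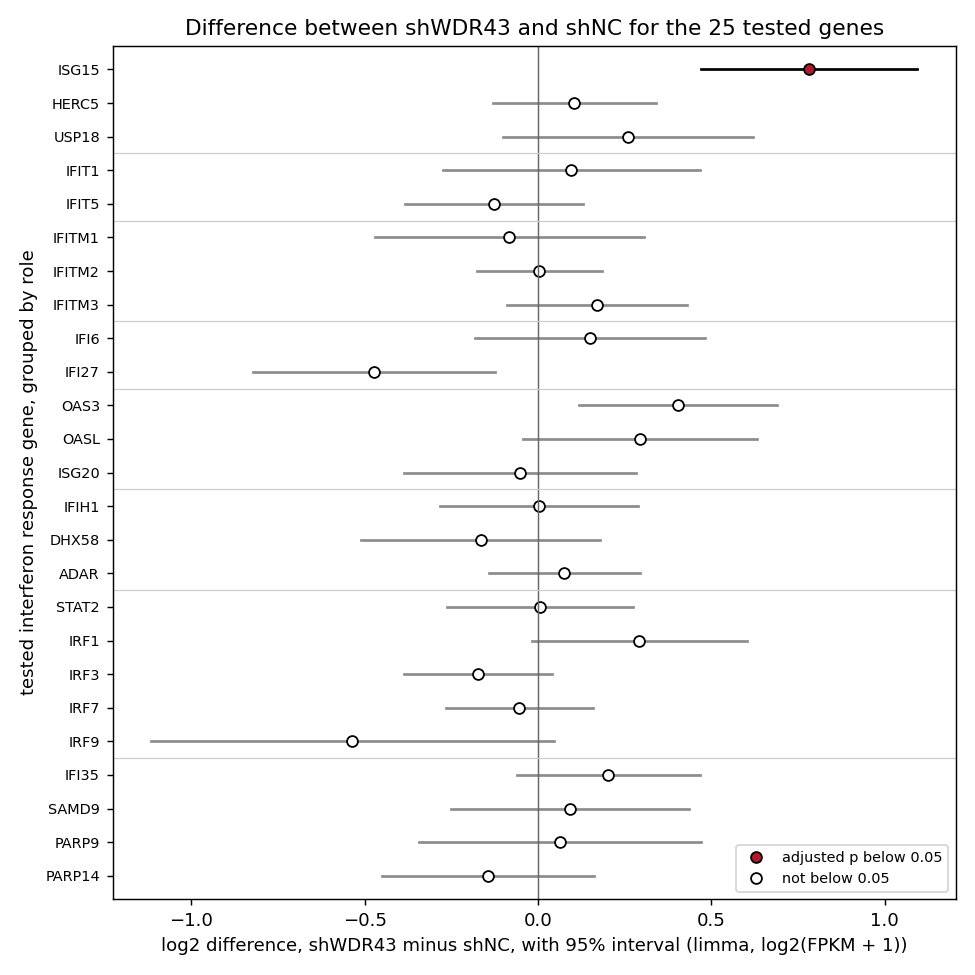
Log2 difference, shWDR43 minus shNC, with its 95% interval from limma for the 25 tested genes, grouped by role; the filled point passed an adjusted p of 0.05. ISG15 lies at 0.78 with an interval from 0.47 to 1.09, and the 24 other points are open.

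A p that misses the threshold does not show that levels were alike, so the 95% intervals are given. For 18 of the 24 genes that did not pass, the interval lay within 0.58 in either direction on the log2(FPKM + 1) scale. It reached past that bound for USP18, IFI27, OAS3, OASL, IRF1 and IRF9. The bound is a 1.5-fold change of FPKM + 1, so near 1 FPKM the interval allows a larger fold change of FPKM itself. With a pseudocount of 0.1, the log2 differences were -0.29 ± 0.26 (SE) for DHX58 and 0.19 ± 0.30 (SE) for IFIT1. For 16 of the 25 tested genes (64%) the difference between groups was smaller than the gap between the shNC libraries, against 47.3% of all tested genes. The median gap was 0.06 between the shWDR43 libraries and 0.19 between the shNC libraries for the list, and 0.09 and 0.14 for all tested genes.

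Of the 3 tested genes of the ISG15 system, 1 rose, where 4.79% of all tested genes rose. ISG15 encodes a ubiquitin-like protein that is attached to other proteins and also released from cells (ENSG00000187608, chromosome 1, 1001138 to 1014540, plus strand, GENCODE release 29). It was at 60.1 and 58.7 FPKM in shWDR43, against 29.3 and 39.7 FPKM in shNC. Both shWDR43 libraries were above both shNC libraries, and the shNC libraries lay far apart. The ratio of means was 1.72, with a log2 difference of 0.78 ± 0.13 (SE) and an adjusted p of 0.0263. Leaving out single libraries moved the log2 difference between 0.57 (without shNC replicate 1) and 0.997 (without shNC replicate 2), and it passed in each of these fits. The ISG15 gene model holds AL645608.1 on the opposite strand, at a mean of 0.224 FPKM.

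HERC5, the ligase that attaches ISG15, and USP18, the protease that removes it and restrains receptor signalling, did not pass. HERC5 was at 6.74 and 7.05 FPKM in shWDR43 and at 6.0 and 6.69 FPKM in shNC, a log2 difference of 0.105 ± 0.10 (SE, adjusted p = 0.551 by limma). USP18 was at 1.48 and 1.6 FPKM in shWDR43 and at 0.915 and 1.36 FPKM in shNC, a log2 difference of 0.26 with an interval from -0.10 to 0.62. For both genes the groups did not overlap, by a margin smaller than the gap between the shNC libraries. Groups did not overlap for 57.3% of all tested genes. Of the 50-base words of the longest coding USP18 transcript, 23.4% also occur in transcripts of other genes, mostly USP41, which was listed at 0 in all libraries. The USP18 level is therefore uncertain.

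The IFIT genes encode proteins that bind foreign RNA ends. IFIT5 was the most abundant, at 2.79 and 2.72 FPKM in shWDR43 and 3.04 and 3.15 FPKM in shNC, a log2 difference of -0.13 (adjusted p = 0.509 by limma). IFIT1 was at 1.03 and 1.06 FPKM in shWDR43 and at 0.743 and 1.11 FPKM in shNC, so the groups overlapped. IFIT2 and IFIT3 lay between 0.275 and 0.594 FPKM in all libraries. IFIT1, IFIT2 and IFIT3 lie within the extended gene model of LIPA on the opposite strand, which was at 20.4 and 19.0 FPKM in shWDR43 and 14.7 and 16.9 FPKM in shNC. No source used here gives the strandedness of the counting, and these low IFIT levels are uncertain.

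The IFITM genes, neighbours on chromosome 11, encode small membrane proteins that hinder virus entry. IFITM2 hardly differed among libraries, at 29.5 and 29.6 FPKM in shWDR43 and 29.3 and 29.6 FPKM in shNC, with a 95% interval of the log2 difference from -0.17 to 0.18. IFITM3 was at 163 and 142 FPKM in shWDR43 and at 126 and 144 FPKM in shNC, with overlapping groups and an interval from -0.09 to 0.43. IFITM1 was far lower, at 1.51 and 1.8 FPKM in shWDR43 and 2.22 and 1.44 FPKM in shNC. The 3 genes share sequence. Of the 50-base words of their longest coding transcripts, 42.3% for IFITM1, 15.8% for IFITM2 and 20.3% for IFITM3 occur in transcripts of other genes, mostly of each other. IFITM1 also overlaps the IFITM2 gene model on the same strand, so how reads were split among them is uncertain.

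Among the other membrane effectors, IFI27, a gene with a mitochondrial product that is strongly induced by interferon, did not pass but had an interval that left out 0. It was at 0.75 and 1.02 FPKM in shWDR43, against 1.73 and 1.49 FPKM in shNC. The groups did not overlap, and the log2 difference was -0.47 ± 0.15 (SE), with an interval from -0.82 to -0.12 and an adjusted p of 0.0993 by limma. IFI6, which encodes a related protein, went the other way within its spread, at 8.51 and 7.73 FPKM in shWDR43 and 6.13 and 8.46 FPKM in shNC. BST2, the tether of budding virus particles, stayed between 0.658 and 0.920 FPKM.

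The OAS genes encode synthetases that make 2′-5′ oligoadenylate on double-stranded RNA and so activate RNase L. OAS3 was the most abundant, at 7.55 and 8.16 FPKM in shWDR43, against 6.39 and 5.04 FPKM in shNC. Its log2 difference was 0.40 ± 0.12 (SE), with an interval from 0.12 to 0.69 and an adjusted p of 0.0897 by limma. Leaving out single libraries moved the difference between 0.26 and 0.55. OASL, a family member without that enzymatic activity, was at 1.19 and 1.17 FPKM in shWDR43 and at 0.724 and 0.833 FPKM in shNC, with an interval from -0.04 to 0.63. It reached the filter only through the shWDR43 libraries. OAS1, which was not tested, was at 0.184 and 0.0702 FPKM in shWDR43 and at 0.393 and 0.362 FPKM in shNC, and OAS2 was at 0.0484 FPKM or less in all libraries. Both shWDR43 values were thus above shNC for OAS3 and OASL and below it for OAS1. Of all tested genes, 35.8% lay above in this way and 21.5% below. ISG20, an exonuclease gene, was at 3.92 and 2.92 FPKM in shWDR43 and 3.26 and 3.87 FPKM in shNC.

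None of the 3 sensor and editor genes passed. ADAR, the enzyme that edits adenosine to inosine in double-stranded RNA, was at 41.9 and 42.5 FPKM in shWDR43 and 43.1 and 37.1 FPKM in shNC, with an interval from -0.14 to 0.29. IFIH1, the cytosolic sensor MDA5, was at 2.56 and 2.51 FPKM in shWDR43 and 2.75 and 2.31 FPKM in shNC. DHX58, which encodes the related protein LGP2, was at 0.889 and 1.18 FPKM in shWDR43 and 1.31 and 1.24 FPKM in shNC, a log2 difference of -0.17 (adjusted p = 0.517 by limma).

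The factors that carry the signal were expressed without passing. STAT2 was at 13.9 and 13.1 FPKM in shWDR43 and at 15.0 and 12.0 FPKM in shNC, with overlapping groups and an interval from -0.26 to 0.27. IRF3, the factor that first responds to RNA sensors, was at 24.7 and 24.1 FPKM in shWDR43 and 25.8 and 29.5 FPKM in shNC, a log2 difference of -0.17 (adjusted p = 0.276 by limma). IRF3 overlaps BCL2L12 on the opposite strand, at 14.8 and 15.9 FPKM in shWDR43 and 10.4 and 13.1 FPKM in shNC. IRF7, which amplifies interferon production, was at 7.83 and 7.67 FPKM in shWDR43 and 8.13 and 8.02 FPKM in shNC, with an interval from -0.27 to 0.16. IRF1, a factor induced by both interferon types, was at 4.75 and 3.73 FPKM in shWDR43 and 3.04 and 3.49 FPKM in shNC, with an interval from -0.02 to 0.60.

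IRF9, the DNA-binding partner of STAT2, had the most negative log2 difference of the list, and that value rested on 1 library. It was at 4.40 and 4.27 FPKM in shWDR43, against 9.53 and 4.67 FPKM in shNC. The log2 difference was -0.54 ± 0.25 (SE, adjusted p = 0.219 by limma), -0.09 without shNC replicate 1 and -0.98 without shNC replicate 2. ENSG00000259529, AL136295.5 in GENCODE release 29, covers IRF9 on the same strand of chromosome 14 (24161053 to 24166565). All 50-base words of the longest coding IRF9 transcript (100%) occur in its transcripts. It was at 6.53 and 3.91 FPKM in shWDR43 and at 2.36 and 6.44 FPKM in shNC. Its lowest value was thus in the library where IRF9 was highest. How reads were divided between these genes was not tested, and the IRF9 level is uncertain.

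**Figure D4:**
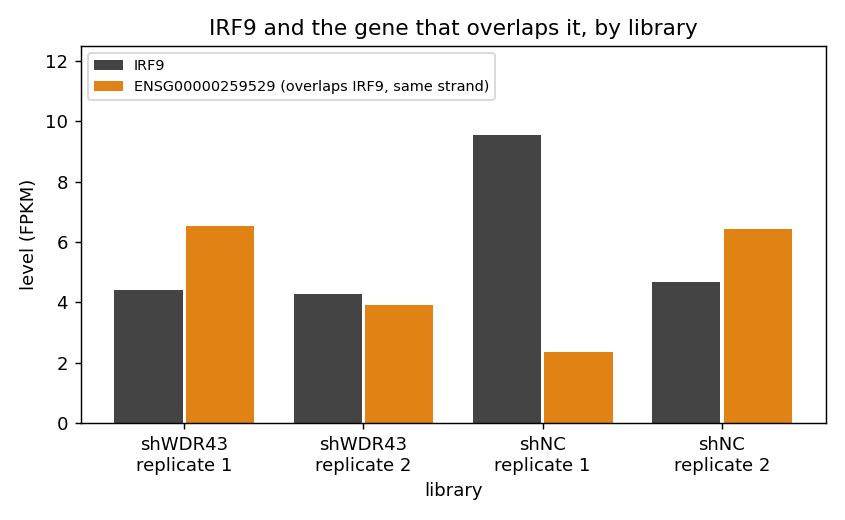
Level in FPKM of IRF9 and of ENSG00000259529, which overlaps it on the same strand, in each library. In shNC replicate 1 IRF9 stands at 9.53 and the overlapping gene at 2.36 FPKM, while IRF9 lies between 4.27 and 4.67 FPKM in the other 3 libraries.

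The remaining effectors stayed low. IFI35 was at 3.12 and 2.92 FPKM in shWDR43 and 2.54 and 2.44 FPKM in shNC, without overlap, a log2 difference of 0.20 (adjusted p = 0.296 by limma). SAMD9, an antiviral translation inhibitor, PARP9 and PARP14, which encode ADP-ribosyltransferase family proteins, had overlapping groups and log2 differences of 0.09, 0.06 and -0.14. MX1, the dynamin-like GTPase often used to read out interferon, was at 0.395 and 0.316 FPKM in shWDR43 and at 0.136 and 0.211 FPKM in shNC. IFI44 was at 0.206 and 0.373 FPKM in shWDR43 and 0.0731 and 0.125 FPKM in shNC. Both were above shNC in each shWDR43 library but below 1 FPKM, and without the filter neither passed (limma adjusted p = 0.401 for MX1 and 0.351 for IFI44). OAS1 had an adjusted p of 0.266 in that fit.

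The wider pathway was read from 108 further listed genes, of which 103 were in the values and 67 were tested. Of these 2 rose and 0 fell, SAMHD1 and IFI30, a share of 2.99% against the 4.79% of all tested genes that rose. The median log2 difference was 0.09. Both shWDR43 libraries were above both shNC libraries for 37 genes (55.2%) and below for 9 (13.4%), against 35.8% and 21.5% of all tested genes. No test was made on that share, and the list was chosen with earlier results of these data known. Without the filter on low values the number that rose was 0, with a limma adjusted p of 0.130 for SAMHD1 and 0.125 for IFI30.

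None of the 7 interferon genes in the values reached the filter. IFNB1, IFNL1 and IFNL3 were listed at 0 in all libraries, and IFNE, an epithelial interferon, had the highest value, 0.576 FPKM in shWDR43 replicate 1. The receptor and kinase genes were expressed, and none of 15 tested passed by limma, with 5 at an unadjusted p below 0.05, where all tested genes had a share of 26.4%. PTPN1, a phosphatase that acts on JAK kinases, was at 19.8 and 19.9 FPKM in shWDR43 and 16.8 and 16.3 FPKM in shNC, a log2 difference of 0.25 (adjusted p = 0.104).

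Among 12 tested sensor, adaptor and kinase genes SAMHD1 rose, where 4.79% of all tested genes rose. It encodes a phosphohydrolase that depletes nucleotides needed by retroviruses. It was at 6.59 and 7.46 FPKM in shWDR43, against 4.61 and 4.35 FPKM in shNC. The log2 difference was 0.55 ± 0.11 (SE, adjusted p = 0.0333 by limma). Without shWDR43 replicate 2 it was 0.47 and did not pass (adjusted p = 0.150). The DNA sensor gene CGAS reached at most 0.0351 FPKM and IFI16 at most 0.0363 FPKM; both were singled out after their values were seen.

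Of 25 tested other interferon-stimulated genes, IFI30 rose, where 4.79% of all tested genes rose. It encodes the lysosomal thiol reductase of antigen processing. AC007192.1, at a mean of 0.10 FPKM, overlaps IFI30 on the same strand, and how reads were divided was not tested. IFI30 was at 19.8 and 18.0 FPKM in shWDR43, against 12.8 and 12.9 FPKM in shNC. Its log2 difference was 0.52 ± 0.09 (SE, adjusted p = 0.0263 by limma). Without shWDR43 replicate 1 it was 0.45 and did not pass (adjusted p = 0.121). In this list 40 genes were in the values and CXCL10, CXCL11 and RTP4, named after their values were seen, were listed at 0 in all libraries. Of the other IRF family genes, 0 of 5 tested passed by limma, with 1 at an unadjusted p below 0.05, against the 26.4% of all tested genes. IRF2BP2, a corepressor partner of IRF2, had a log2 difference of 0.20 (adjusted p = 0.158), and IRF2, a factor that competes with IRF1, one of 0.24 (adjusted p = 0.213).

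**Figure D5:**
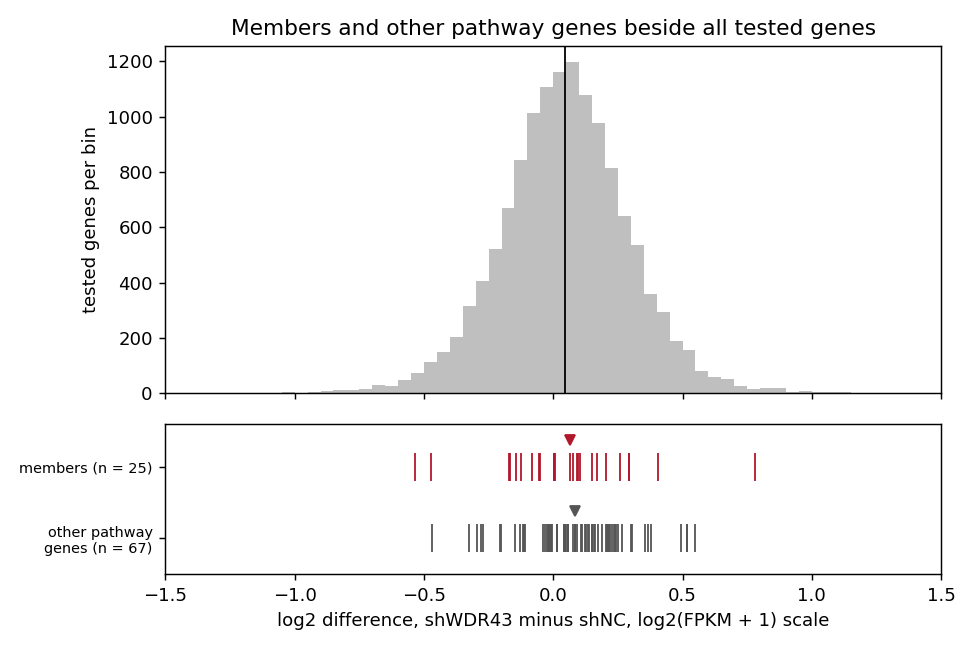
Log2 difference, shWDR43 minus shNC, as a histogram over the 13303 tested genes (top; 0.05 per bin, values within 1.5 of 0, line at the median) and as ticks for the 25 tested interferon response genes and 67 other pathway genes (bottom; triangles at the medians of 0.06 and 0.09). ISG15 is the rightmost red tick at 0.78.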

How the data were processed

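RNA-seq was carried out on 4 HCT116 libraries, 2 shWDR43 and 2 shNC, prepared with a TruSeq kit per the labels' protocols. The submitters' processing notes name GRCh38 and the tools edgeR, RSEM, HISAT2, FastQC, Trimmomatic and CASAVA 1.8, without their roles. The deposited values were read as FPKM made by the authors. That unit was inferred from the values, and whether it is TPM over a subset of genes was not tested. Each file held 29286 genes and 1 blank entry, which was left out. Low values showed no whole-read steps between libraries (at most 1.54% of genes in the fullest 1% window of ratios), so the depth is unknown and no read-count interval is given.

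The 13303 genes that reached 1 FPKM in 2 or more libraries were fitted on log2(FPKM + 1) by limma 3.58.1 (R 4.3.3), with group as the only term and with the trend and robust options. Tests were two-sided and adjusted by Benjamini-Hochberg over all 13303 genes. The pseudocount of 1 shrinks log2 differences at low levels. Ratios are of mean FPKM. The model was tested on simulated data. Symbols came from a name table (29170 genes matched) and positions from GENCODE release 29. Promoter windows came from RefSeq (GRCh38.p14). Shared sequence was counted as 50-base words of the longest coding transcript found in transcripts of any other gene.

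The 32 genes and the wider lists were chosen with earlier results of these data known. All 32 are reported. Of each wider list, up to 4 changed genes with the smallest p-values are named, or the 2 smallest where none changed. One gene that this rule names is not reported here. Alternatives were a pseudocount of 0.1, no filter (genes at 0 in all libraries left out), a filter at 5 FPKM, median-ratio and upper-quartile scaling, robust settings off, the replicate number as a block, and each library left out in turn. A crossed block was added after seeing the data. With 1 library left in a group, its spread is taken from the other group. Python 3.11.15, matplotlib 3.10.9 and pandas 2.3.3 made the tables and plots.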

Additional observations from a re-analysis of the deposited data

How the results depend on the processing

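Of the 25 tested interferon response genes, 14 kept the sign of their log2 difference under every alternative that tested them, and 11, all uncalled, changed sign under at least one. ISG15 passed under all alternatives except without the filter. Under median-ratio and upper-quartile scaling the log2 differences were -0.0538 and -0.0645 for IFITM2, -0.0390 and -0.0472 for IFIH1, and -0.0505 and -0.0609 for STAT2. Leaving out single libraries gave ranges of -0.0403 to 0.233 for IFIT1, -0.28 to 0.12 for IFITM1, -0.00197 to 0.0109 for IFITM2, -0.0545 to 0.355 for IFI6, -0.22 to 0.11 for ISG20, -0.0862 to 0.0943 for IFIH1, -0.0303 to 0.182 for ADAR, -0.14 to 0.15 for STAT2, -0.0638 to 0.250 for SAMD9, -0.20 to 0.33 for PARP9 and -0.29 to 0.00165 for PARP14. These fits called 1 to 2 of the list higher and 0 to 1 lower, 258 to 1795 of all genes higher and 133 to 815 lower, and 1 to 5 of the other pathway genes higher and 0 to 3 lower.

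Without the filter, which added 13635 genes at low levels, 0 of the list and 0 of the other pathway genes were higher, with 15 of all genes higher and 2 lower by limma, and 4351 at an unadjusted p below 0.05. All genes called higher numbered 295 (with 221 lower) under median-ratio scaling and 327 (with 287 lower) under upper-quartile scaling, against 637 (with 196 lower) as deposited. Upper-quartile scaling also called 1 other pathway gene lower. The filter at 5 FPKM left 10 of the list testable. The labels do not say that a replicate number marks a shared culture. Deviations of same-numbered libraries correlated at -0.147. The replicate block called 1 of the list higher and 413 of all genes higher. The crossed block called 2 of the list, 7 other pathway genes and 1375 of all genes higher, and 2 other pathway genes and 579 of all genes lower. The unknown read depth limits statements on genes below 1 FPKM.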

Other observations

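Targets of NF-kB, a factor that acts beside the IRF factors when RNA or DNA is sensed, went both ways without passing. None of 10 tested genes passed by limma, with 4 at an unadjusted p below 0.05, where all tested genes had a share of 26.4%. RELB, a subunit of the noncanonical NF-kB dimer, was at 3.38 and 4.09 FPKM in shWDR43, against 2.04 and 2.58 FPKM in shNC, a log2 difference of 0.52 ± 0.14 (SE, adjusted p = 0.0657 by limma). TNIP1, which encodes an inhibitor of NF-kB signalling, was at 24.2 and 25.4 FPKM in shWDR43 and 30.4 and 30.9 FPKM in shNC, a log2 difference of -0.30 ± 0.08 (SE, adjusted p = 0.0678 by limma). For both genes the groups did not overlap, as was so for 57.3% of all tested genes. IL6 and TNF, singled out after their values were seen, were listed at 0 in all libraries.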
